A study of Mus musculus with 29 samples.

Results

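Wild-type CD150-positive and CD150-negative stem and progenitor cells of mouse bone marrow were compared by RNA sequencing. The comparison took the 7 libraries labelled Mysm1-WT_Puma-WT of the 29 in the series, which were 4 CD150-positive (D1, D2, D3-4 and W1) and 3 CD150-negative (D2, D3 and D4). All 7 were labelled Mysm1+/+ Puma+/+, strain C57BL/6, from mice of 8 to 12 weeks, with males and females pooled. They carried no mutant allele and no treatment. Cells were stained for CD48 as well, but the sort was described only as lineage-negative, cKit-positive, Sca1-positive and then CD150-positive or CD150-negative. Whether each library is its own animal was not stated, and p-values therefore speak only of how far libraries vary, a variation that may be technical. In the rest of the series the same populations were sorted from Puma-/-, Mysm1-/-Puma+/- and Mysm1-/-Puma-/- mice.

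Blood stem cells lie in the lineage-negative, cKit-positive, Sca1-positive compartment of the marrow, and CD150, the product of Slamf1, is a surface receptor used to find them there. Without a gate on CD48, the CD150-positive fraction of that compartment also takes in progenitors that lean towards megakaryocytes and red cells. The CD150-negative fraction holds multipotent progenitors, many of which carry the receptor Flt3 and lean towards lymphoid or granulocyte and monocyte fates.

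The GATA factor motifs AGATAA and TGATAA were searched on both strands of the 250 bases before the start of each gene, in RefSeq windows of GRCm38.p6. They are shown because Gata1 and Gata2 rose in the CD150-positive cells, as given further on. The windows of Slamf1, whose product the sort used, of the platelet genes Gp5 and Mmrn1, and of the lymphoid gene Dntt are printed because they held matches, marked here in capitals. They lie at chr1:171766882-171767131 on the plus strand, chr16:30310782-30311031 on the minus strand, chr6:60944067-60944316 on the plus strand and chr19:41029025-41029274 on the plus strand.
Slamf1: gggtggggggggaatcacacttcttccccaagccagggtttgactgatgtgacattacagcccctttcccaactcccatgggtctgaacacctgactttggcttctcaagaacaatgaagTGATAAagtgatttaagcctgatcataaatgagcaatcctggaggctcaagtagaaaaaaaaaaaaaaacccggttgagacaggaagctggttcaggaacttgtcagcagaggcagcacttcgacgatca
Gp5: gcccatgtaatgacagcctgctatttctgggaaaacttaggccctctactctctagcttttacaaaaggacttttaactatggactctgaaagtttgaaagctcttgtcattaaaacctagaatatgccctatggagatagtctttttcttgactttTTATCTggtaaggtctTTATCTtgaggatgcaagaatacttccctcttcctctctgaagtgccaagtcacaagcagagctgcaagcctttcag
Mmrn1: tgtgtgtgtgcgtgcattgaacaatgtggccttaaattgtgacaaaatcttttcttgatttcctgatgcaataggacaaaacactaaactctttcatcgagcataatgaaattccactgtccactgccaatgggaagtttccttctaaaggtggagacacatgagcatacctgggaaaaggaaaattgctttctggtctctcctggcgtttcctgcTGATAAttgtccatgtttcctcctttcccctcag
Dntt: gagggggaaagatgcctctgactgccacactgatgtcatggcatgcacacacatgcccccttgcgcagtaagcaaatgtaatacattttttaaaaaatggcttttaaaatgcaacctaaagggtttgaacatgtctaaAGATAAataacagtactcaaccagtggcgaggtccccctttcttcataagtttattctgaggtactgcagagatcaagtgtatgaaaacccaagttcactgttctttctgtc
The match of Slamf1 began 130 bases before its start, those of Gp5 began 93 and 77 bases before it, that of Mmrn1 34 and that of Dntt 112. Gp5 carries the motif on the other strand of the printed sequence, where it reads TTATCT. Shares were counted by gene, and a gene with several windows counted as matched if any of them held a motif. Either motif was found for 15.6% of the 15723 tested genes with a window. The share was 14.3% of 484 such genes that were higher in CD150-positive cells and 13.7% of 663 that were lower. Of megakaryocyte genes that were higher, 3 of 11 with a window had a match, and of lymphoid genes that were lower, 1 of 11. The megakaryocyte genes with a match were Gp5, Mmrn1 and Clec1b, the last not printed, while Pf4, Itga2b, F2r and Trpc6 had 0 matches. A match is a string of letters and not a measured binding site.

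Levels are in CPM, the count of a gene as a share of its library's total on a fixed common scale, here scaled by TMM. Library totals were 12304713 to 22570971 counts in the CD150-positive and 28066870 to 54339749 counts in the CD150-negative cells, so depth went with population. With all libraries thinned to 12304713 counts, 566 genes were higher and 901 lower, and 1382 of the original calls were kept. Correlations of log2 levels across genes were 0.918 to 0.969 within CD150-positive, 0.977 to 0.985 within CD150-negative and 0.888 to 0.922 between the populations. Genes of smell, pheromone and trace amine receptors, silent in blood cells and used as a background level, took 2542 to 8116 CPM of the unscaled library total in CD150-positive and 1946 to 4197 in CD150-negative cells, highest in CD150-positive D2. W1, whose name does not share the letter of the D libraries, stood apart in Fos, an immediate early gene, with 218 CPM against 0.417 to 4.21 in the other 6 libraries. Counts of the main stem cell and lineage groups below are therefore also given without W1.

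Of 21830 genes tested, 675 (3.09%) were higher and 885 (4.05%) lower in CD150-positive cells, at an adjusted p under 0.05 by edgeR's quasi-likelihood test, which makes 7.15% in either direction. Among the 11615 genes at a mean log2 CPM of at least 2, 5.09% were higher and 6.84% lower. The gene lists below were chosen with earlier results of these data known, so their shares are not independent of these data. The median log2 difference over all genes was 0.05, where a log2 difference is the CD150-positive minus the CD150-negative level. In 134 of the higher and 184 of the lower genes the log2 difference was at least 2 in size. The populations shared no range of values in 3970 of all genes tested (18.2%), so a lack of overlap was more common than a call. Without CD150-negative D2, 405 were higher and 579 lower. Without CD150-negative D3 the number of higher genes was 432, and without CD150-negative D4 the number of lower genes was 580. In bulk libraries such as these, fewer cells of a type and less RNA per cell cannot be told apart.

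Slamf1, whose product divided the populations in the sort, followed the labels. Slamf1 was at 22.9, 17.6, 19.2 and 17.5 CPM in CD150-positive D1, D2, D3-4 and W1 and at 0.466, 0.511 and 1.03 in CD150-negative D2, D3 and D4. All CD150-positive libraries were far above all CD150-negative ones, and the log2 difference was 4.83 ± 0.42 (SE, adjusted p = 5.3e-09). Since the sort used the product of Slamf1, this difference checks the labels and is not an independent result. Kit, the cKit receptor on which both populations were gated, was at 516 to 693 CPM in CD150-positive and 498 to 530 CPM in CD150-negative libraries, and did not pass the test (adjusted p = 0.3). Ly6a, which encodes Sca1, was at only 7.39 to 11.1 CPM over the 7 libraries and did not differ past the test either (adjusted p = 0.9). Ly6a belongs to a family of similar genes, and whether reads with several matches were lost from it was not tested. Flt3 was at 49.2, 39.9, 27.2 and 92.3 CPM in the CD150-positive and 562, 699 and 667 in the CD150-negative libraries, with W1 the highest of the CD150-positive ones and no overlap between the groups. Its log2 difference was -3.62 ± 0.43 (adjusted p = 1.2e-06).

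Slamf1 lies in a cluster of SLAM family receptors on chromosome 1, which encode surface proteins that meet on neighbouring blood cells, and members a short distance apart went in opposite directions. Within 331.5 kb of NCBIM37, from 173489324 to 173820849, the order of genes was Cd244, Ly9, Slamf7, Cd48, Slamf1 and Cd84. Cd244 was at 7.24 to 10.1 CPM in CD150-positive and 39.0 to 48.6 in CD150-negative libraries (log2 difference -2.27 ± 0.29). Ly9 was at 12.8 to 16.9 and 35.5 to 37.6 CPM (-1.24 ± 0.21), and Cd48 at 18.0 to 23.1 and 43.8 to 61.2 (-1.32 ± 0.28). Cd244, Ly9 and Cd48 fell with adjusted p-values of 3.4e-06, 0.00018 and 0.0026, and in each of them no CD150-positive library reached the lowest CD150-negative one. Cd84, whose start lies 72.6 kb beyond that of Slamf1, was at 184 to 237 and 122 to 143 CPM and rose by 0.62 ± 0.16 (adjusted p = 0.01, and 0.068 without CD150-negative D3). Per kb of gene length, Cd84 had 29.8 CPM and Slamf1 7.18 CPM in CD150-positive cells, so Slamf1 showed the larger difference at the lower level. Slamf7 (0.71 ± 0.73) and Slamf6 (0.53 ± 0.78), both under 5 CPM on average, did not pass the test. Of 11 SLAM family genes tested, 2 rose (18.2%) and 3 fell (27.3%), beside 3.09% and 4.05% of all genes. The rises include Slamf1, on whose product the cells were sorted.

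**Figure D1:**
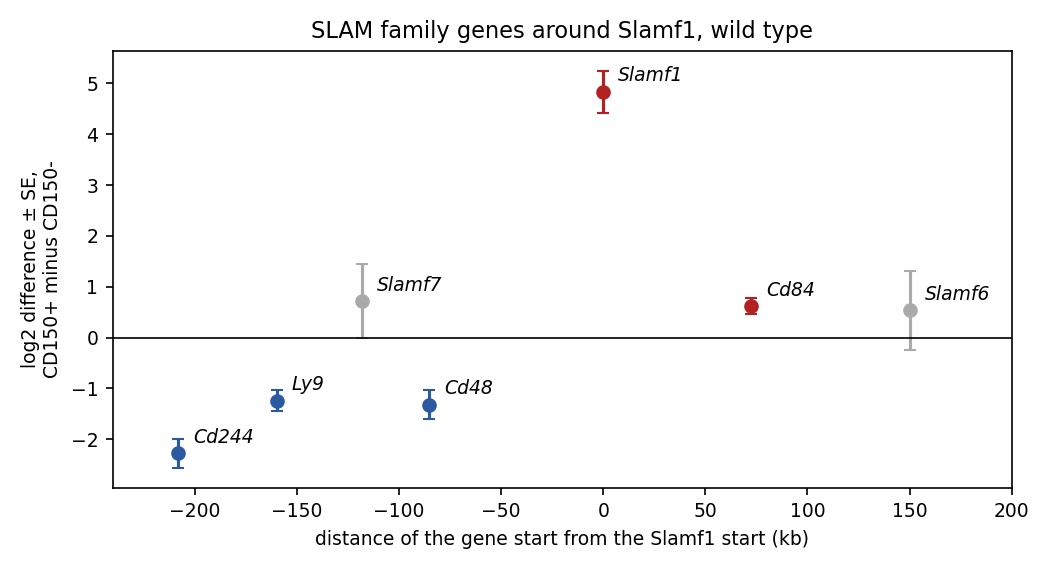
Log2 difference between wild-type CD150-positive and CD150-negative cells (points, with SE as bars) for 7 SLAM family genes, against the distance of each gene's start from that of Slamf1 in kb. Red marks genes that rose, blue genes that fell and grey genes that did not pass the test. Slamf1 stands at 4.83 between Cd48 at -1.32 and Cd84 at 0.62.

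The 12 largest rises, among genes at a mean log2 CPM of at least 2 whose groups shared no range, were Nol3, Phkg1, Tmod1, Mir690, Sdpr, Pf4, Slamf1, Vwf, Apoe, Aldh1a1, Evc2 and Clec1a. Nol3, which encodes a repressor of apoptosis, was at 132, 227, 69.9 and 76.5 CPM in the CD150-positive D1, D2, D3-4 and W1 and at 0.215, 0 and 0.388 CPM in the CD150-negative libraries. It went from near absence to a high level, with a log2 difference of 9.40 ± 0.87. Tmod1, tropomodulin, which caps actin filaments, was at 46.7, 92.8, 56.1 and 39.1 CPM against 0.215, 0.398 and 0.983 (6.74 ± 0.68). Phkg1, the catalytic subunit of phosphorylase kinase, was at 43.8, 86.4, 55.4 and 27.8 CPM against 0.108, 0.398 and 0.776 (6.89 ± 0.65). In Nol3, Tmod1 and Phkg1 CD150-positive D2, the library with the highest background, had the highest level, and every CD150-negative library was below 1 CPM.

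Each of these 3 genes shares exon sequence with a gene on the opposite strand, and the strand setting of the counting was not given in the sources used here. Phkg1 shares 632 of its 3232 exon bases with Sumf2, which itself was at 97.7 CPM in CD150-positive and 11.1 CPM in CD150-negative cells (3.13, adjusted p = 3.4e-06). Nol3 shares 1530 of 2869 exon bases with 4931428F04Rik, at 30.5 and 9.83 CPM (1.63, adjusted p = 0.00059). Tmod1 shares 1287 of 3946 exon bases with Tstd2, at 58.9 and 36 CPM (0.71, adjusted p = 0.00017). The partners also rose, by less than Nol3, Tmod1 and Phkg1, and how the reads of each pair were divided was not tested. Mir690, a row for a hairpin of 109 bases, was at 11.8 to 51.7 against 0.170 to 0.440 CPM, and whether these reads come from a small RNA or a longer transcript was not tested.

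Apoe, the apolipoprotein of cholesterol transport, had the highest CPM of these 12, with 572, 516, 349 and 509 CPM in CD150-positive and 42.0, 49.7 and 37.3 in CD150-negative libraries (3.5 ± 0.33, adjusted p = 2.5e-08). Per kb it had 389 CPM in CD150-positive cells, above the 11.3 of Vwf and the 114 of Pf4. Evc2, a component of the primary cilium, was at 10.3 to 13.7 against 0.587 to 1.89 CPM (3.44 ± 0.60), and Clec1a, a C-type lectin, at 12.9 to 17.5 against 1.45 to 1.58 CPM (3.35 ± 0.48). Both held their level in W1 as in the D libraries.

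The 12 largest falls were Psg28, Dntt, Gas7, Myoz3, Mcc, Ednrb, Ptchd1, Trpm2, Flt3, Tfap2a, Satb1 and Sema3d. Gas7, a regulator of the actin skeleton, was at 4.38, 6.75, 2.55 and 5.45 CPM in the CD150-positive and 102, 119 and 137 CPM in the CD150-negative libraries (log2 difference -4.67 ± 0.38, adjusted p = 3.2e-09). Ednrb, an endothelin receptor, was at 4.66, 3.25, 2.41 and 1.80 against 56.0, 33.2 and 55.0 CPM (-4.0 ± 0.52), and Trpm2, a calcium channel, at 4.99, 8.20, 4.04 and 5.76 against 70.6, 57.9 and 91.3 CPM (-3.69 ± 0.36). In all 3 the populations lay far apart, and W1 was within the range of the D libraries or below it. Psg28, one of the pregnancy-specific glycoproteins, was at 1.67 to 17.6 against 362 to 739 CPM (-6.14 ± 0.91). Its family has near-identical members, so the gene to which those reads belong is uncertain. Mcc (-4.25 ± 0.59), Myoz3 (-4.57 ± 0.70), Ptchd1 (-3.85 ± 0.69), Tfap2a, a transcription factor (-3.62 ± 0.61), and Sema3d, a secreted guidance protein (-3.52 ± 0.42), completed the falls outside the lymphoid genes.

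**Figure D2:**
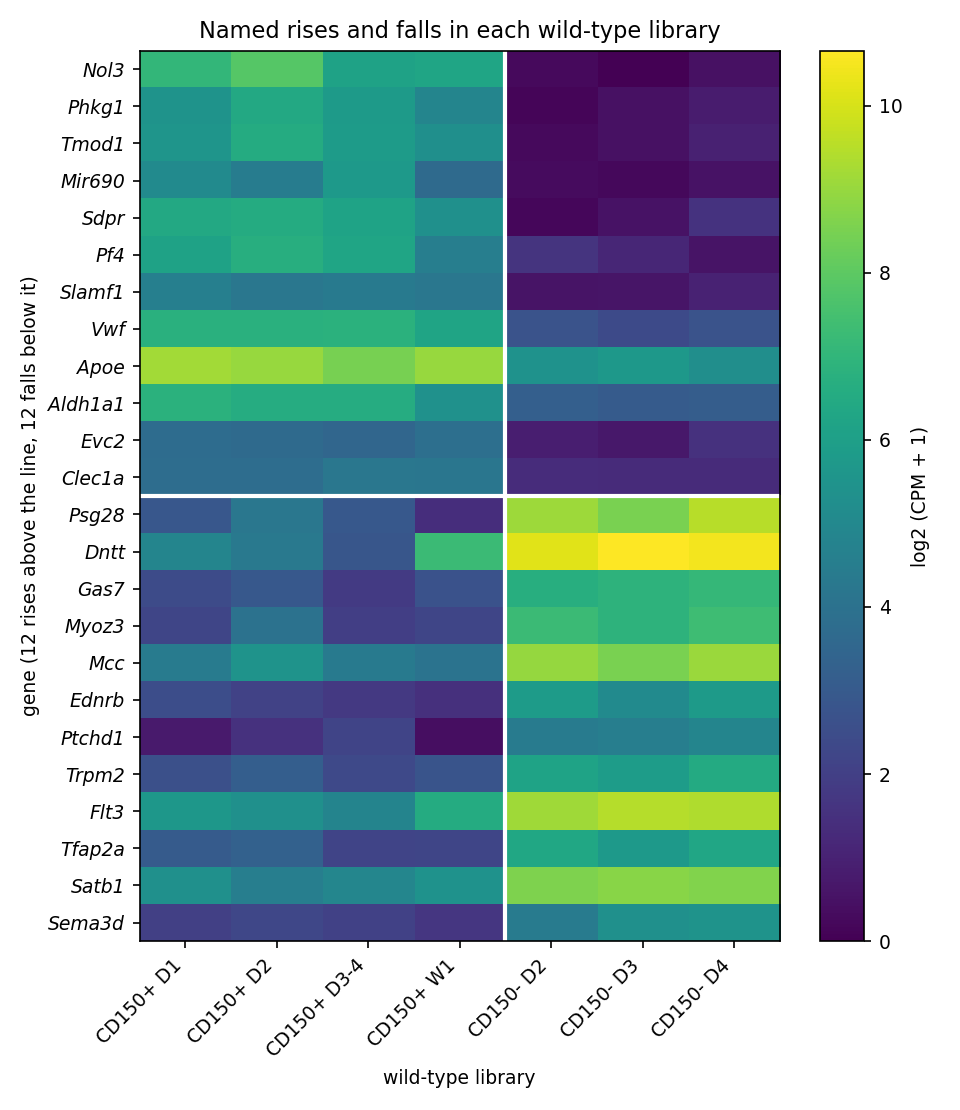
Log2 (CPM + 1) of the 12 largest rises (upper block) and 12 largest falls (lower block) in each of the 7 wild-type libraries, with CD150-positive libraries left of the white line. Nol3 goes from 69.9 to 227 CPM on the left to at most 0.388 on the right, and Dntt is at 153 CPM in W1 against 6.14 to 28.0 in the other CD150-positive libraries.

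Among genes of megakaryocytes and platelets, 17 of 28 tested rose (60.7%, beside 3.09% of all genes) and 0 fell by edgeR. At an unadjusted p under 0.05, 2 were lower, and DESeq2 called 0 lower. The median log2 difference of the list was 1.89, beside 0.05 for all genes, and without W1 18 rose with a median of 2.01. Itga2b, the CD41 chain of the fibrinogen receptor, was at 277, 275, 195 and 139 CPM in CD150-positive and 27.9, 30.9 and 25 in CD150-negative libraries (2.99 ± 0.25, adjusted p = 5e-09). Trpc6, a calcium channel of platelets, was at 82.7, 53.7, 86.0 and 73.4 against 8.57, 9.03 and 8.20 CPM (3.10 ± 0.28, adjusted p = 9.3e-09). Neither gene overlapped between the groups, but the order among CD150-positive libraries differed, with W1 lowest in Itga2b and D2 lowest in Trpc6.

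Pf4, platelet factor 4, was at 68.6, 102, 74.8 and 22.4 CPM against 2.04, 1.19 and 0.465 (5.79 ± 0.70). Vwf, von Willebrand factor, was at 107, 106, 112 and 74.3 against 5.56, 4.18 and 5.61 CPM (4.29 ± 0.45), and Sdpr, a caveola protein, at 85.4, 93.3, 70.8 and 39.4 against 0.144, 0.417 and 1.91 CPM (6.42 ± 0.66). W1 was the lowest CD150-positive library in Pf4, Vwf and Sdpr, and remained above every CD150-negative library. Over the 17 genes that rose, W1 was the CD150-positive library nearest to the CD150-negative range in 10. How often W1 was nearest over all called genes is not reported here. Such counts, here and below, are therefore not shown to be particular to a list. F2r, the thrombin receptor, rose by 2.24 ± 0.23. Several other platelet genes did not pass the test. Ppbp was at 1.26 ± 1.26 against 0.331 ± 0.245 CPM (SD, n = 4 and 3; adjusted p = 0.33), Gp6 at 0.128 ± 0.256 against 0.149 ± 0.130, and Plek at 205 ± 68.9 against 185 ± 9.43 (adjusted p = 0.88).

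Erythroid genes rose in part, with 6 of 19 tested higher (31.6%, beside 3.09% of all genes) and 0 lower by edgeR. At an unadjusted p under 0.05, 2 were lower, and DESeq2 called 1 lower. The median log2 difference was 1.26, and without W1 6 rose with a median of 1.37. Without CD150-positive D2, 1 gene was lower. Zfpm1, the FOG1 partner of GATA factors, was at 232, 214, 231 and 159 CPM against 56.0, 51.3 and 53.6 (1.96 ± 0.26, adjusted p = 7.1e-06). Hemgn, a nuclear protein of early red cells, was at 82.3, 94.0, 85.1 and 58.7 against 33.5, 32.8 and 35.1 CPM (1.24 ± 0.18). Both were lowest in W1 among CD150-positive libraries, and W1 was nearest to the CD150-negative range in 6 of the 6 genes that rose. Gata1, the master factor of red cells and megakaryocytes, was at 65.5, 67.7, 61.1 and 40.1 against 8.57, 9.20 and 9.70 CPM (2.68 ± 0.54, adjusted p = 0.0013). Car2, a carbonic anhydrase of red cells, was at 677, 679, 777 and 514 against 314, 390.3 and 354 CPM (0.91 ± 0.20, adjusted p = 0.0026). Among the erythroid genes not called, Klf1 was at 40.4 ± 3.97 against 9.55 ± 1.89 CPM (adjusted p = 0.066), Alas2, the heme synthesis enzyme, at 0.627 ± 0.496 against 2.81 ± 0.515 (adjusted p = 0.21). The groups shared no range in Klf1. Hba-a1, an alpha globin, was not tested and is listed at 0 in all 7 libraries, as is Rpl26, a ribosomal protein gene that every cell uses.

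Of 30 transcription factor genes of stem cells, 11 rose (36.7%) and 3 fell (10.0%), beside 3.09% and 4.05% of all genes. The list's median log2 difference was 0.31. Without CD150-negative D2 the number that rose was 7, and without W1 it was 9 with a median of 0.08. The number that fell was 1 without any one of CD150-negative D2, CD150-negative D4, CD150-positive D2 and CD150-positive D3-4. Gata2, which keeps stem cells in being, was at 176, 182, 181 and 140.5 CPM in CD150-positive and 48.4, 40.4 and 35.1 in CD150-negative libraries (2.04 ± 0.17, adjusted p = 4e-09). Tal1, a partner of GATA factors, was at 175, 163, 179 and 155 against 74.9, 86.9 and 78.4 CPM (1.07 ± 0.12, adjusted p = 3.1e-07). Both were apart in every library, with W1 lowest of the CD150-positive ones. Mecom, which encodes Evi1, rose by 1.18 ± 0.20 and Gfi1b, a transcriptional repressor that acts within the megakaryocyte and red cell lineages, by 1.77 ± 0.31. Hmga2, a chromatin protein of young stem cells, fell by 2.04 ± 0.39, from 35.1 to 39.1 CPM in CD150-negative to 6.71 to 13.1 in CD150-positive libraries. Several factors central to stem cells did not pass the test. Hlf was at 124 ± 41.2 against 124 ± 11.5 CPM, Lmo2 at 608 ± 48.1 against 599.6 ± 42.0, Runx1 at 105 ± 20.1 against 110 ± 12.1, and Meis1 at 298 ± 45.3 against 213 ± 7.17 (0.49 ± 0.16, adjusted p = 0.056).

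Surface and niche genes of stem cells gave 17 higher (56.7%) and 4 lower (13.3%) of 30 tested, beside 3.09% and 4.05% of all genes. The list's median log2 difference was 1.05, and 13 were higher and 4 lower without W1 (median 1.02). Without CD150-negative D4, 2 were lower. Tek, the angiopoietin receptor Tie2, was at 48.1, 41.2, 48.9 and 55.9 CPM against 5.92, 8.88 and 7.11 (2.73 ± 0.23), and its relative Tie1 rose by 1.27 ± 0.16. Here W1 had the highest level of Tek, not the lowest. Angpt1, the ligand of Tek, was at 674 to 955 CPM in CD150-positive and 443 to 565 CPM in CD150-negative libraries (0.82 ± 0.16, adjusted p = 0.0011), so receptor and ligand were both higher. Angpt1 was chosen after its values were seen, because it is the ligand of Tek. Cd34, a marker absent from the most dormant stem cells, was at 161 to 232 against 530 to 620 CPM (-1.57 ± 0.24, adjusted p = 3.9e-05). It shares 148 of 2621 exon bases with Gm16897 on the opposite strand, which also fell (-4.29). Cxcr4, the receptor that holds cells in the niche, fell by 0.86 ± 0.19. The other falls, Alcam (-0.81) and Vldlr (-1.0), each lost their call without at least 1 library. Esam, an adhesion protein of stem cells and endothelium, rose by 1.67 ± 0.25.

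Genes of detoxification and efflux gave 8 higher (23.5%, beside 3.09% of all genes) and 0 lower of 34 tested by edgeR. At an unadjusted p under 0.05, 2 were lower, and DESeq2 called 0 lower. The median log2 difference was 0.41, and without W1 7 rose (median 0.44). Aldh1a1, the aldehyde dehydrogenase that makes retinoic acid, was at 111, 94.9, 96.0 and 40.9 CPM against 8.43, 7.4 and 7.89 (3.44 ± 0.37, adjusted p = 2.6e-07). Abcg2, the efflux pump of side population cells, rose by 1.07 ± 0.15, and Gstm5, a glutathione transferase, by 2.00 ± 0.29. W1 was the lowest CD150-positive library in Aldh1a1, and every CD150-negative library was far below it.

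Lymphoid priming genes went the other way, with 0 higher and 14 lower (51.9%, beside 4.05% of all genes) of 27 tested by edgeR. At an unadjusted p under 0.05, 0 were higher, and DESeq2 called 0 higher. The list's median log2 difference was -1.12, and without W1 13 fell (median -1.29). Notch1, the receptor that sets T cell fate, was at 23.9, 18.4, 20.8 and 55.1 CPM in CD150-positive and 179, 202 and 209 in CD150-negative libraries (-2.73 ± 0.30, adjusted p = 4.3e-07). Satb1, a chromatin organiser of lymphoid cells, was at 39.2, 22.6, 28.8 and 42.1 against 385, 428 and 392 CPM (-3.59 ± 0.41, adjusted p = 6e-07). Dntt, terminal transferase, was at 28.0, 18.6, 6.14 and 153 against 1162, 1613 and 1416 CPM (-4.76 ± 0.87, adjusted p = 0.00042). W1 was the highest CD150-positive library in Notch1, Satb1, Dntt and Flt3 and the nearest to the CD150-negative range in 9 of the 14 genes that fell, with no overlap in any of these 4.

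Cd27, a costimulatory receptor of lymphocytes, fell by 1.30 ± 0.20. Dtx4, a gene of the Notch pathway, fell by 2.83 ± 0.31, at 4.17 to 6.66 against 33.9 to 38.7 CPM. Over 37 Notch and Wnt genes, 3 rose (Ryk, Sfrp1 and Jag1) and 4 fell (Notch1, Dtx4, Lrp5 and Dkk1). These were 8.11% and 10.8% of the list, beside 3.09% and 4.05% of all genes. In that list 1 rose without any one of CD150-negative D2, CD150-negative D3, CD150-positive D3-4 and W1. Later B cell genes did not pass the test. Ebf1 was at 1.14 ± 0.993 against 1.16 ± 0.409 CPM.

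Genes of granulocytes and monocytes gave 0 higher and 12 lower (41.4%, beside 4.05% of all genes) of 29 tested by edgeR. At an unadjusted p under 0.05, 1 was higher, and DESeq2 called 0 higher. The median log2 difference was -0.76, and without W1 14 fell (median -0.97). With single libraries left out in turn the number that fell was 8 to 14. Cebpa, the factor that opens the granulocyte path, was at 8.21, 5.98, 3.95 and 8.73 CPM in CD150-positive and 43.0, 37.7 and 33.0 in CD150-negative libraries (-2.49 ± 0.32, adjusted p = 3.8e-06). Itgam, the integrin chain CD11b, was at 19.5, 29.5, 15.9 and 16 against 53.1, 58.3 and 63.7 CPM (-1.54 ± 0.25, adjusted p = 9e-05). Irf8, the factor of monocytes and dendritic cells, was at 6.55, 7.0, 3.25 and 31.5 against 107, 87.9 and 87.9 CPM (-2.95 ± 0.62). W1 had the highest level of Irf8 of its group and an ordinary one of Itgam. In 9 of the 12 genes that fell, W1 was nearest to the CD150-negative range. Among granule protein genes of neutrophils, Mpo fell, at 282 ± 288 against 981 ± 462 CPM (-1.80 ± 0.54, adjusted p = 0.04), and its groups overlapped. Elane and Prtn3 did not pass the test. Elane was at 40.2 ± 33.7 against 68.1 ± 37.6 CPM and Prtn3 at 31.6 ± 19 against 50.2 ± 27.2.

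**Figure D3:**
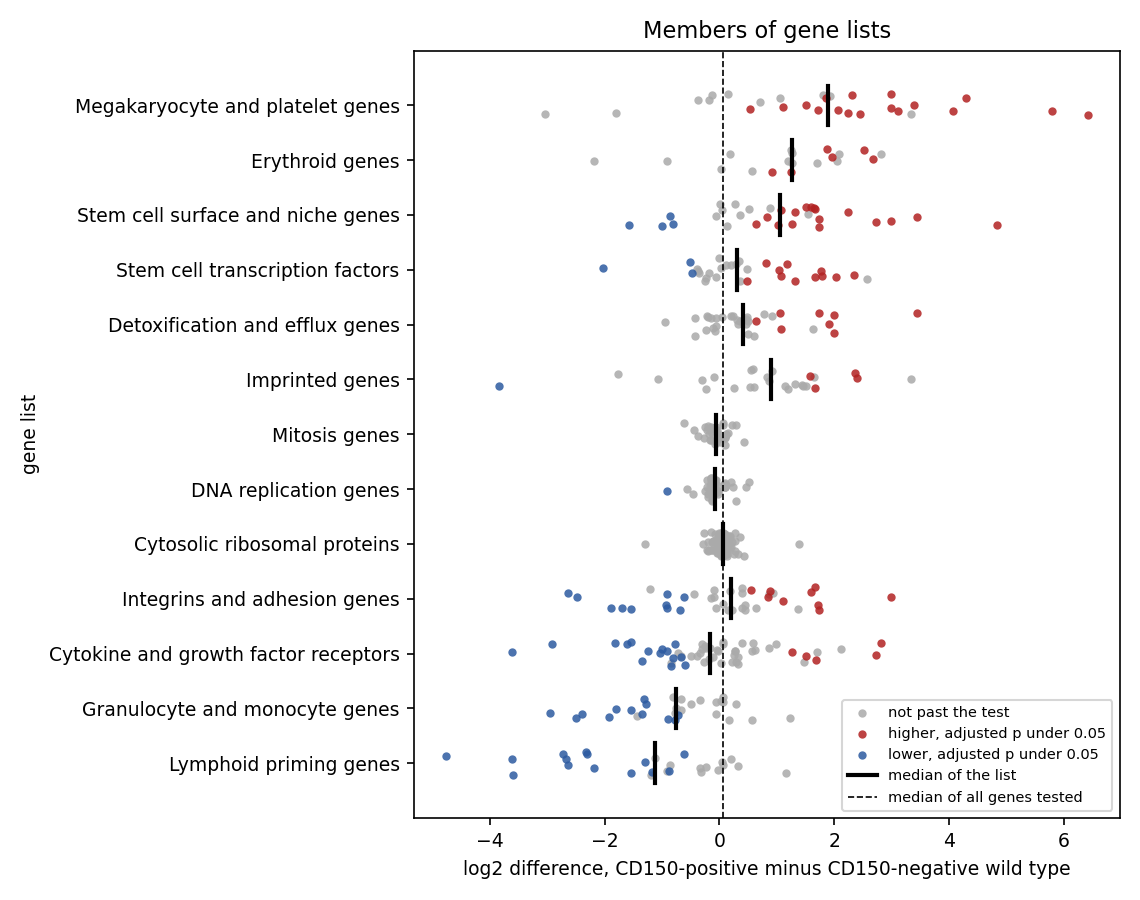
Log2 difference between wild-type CD150-positive and CD150-negative cells for each tested member of 13 gene lists (points), with the median of each list as a black bar and that of all genes as a dashed line. Red points rose and blue points fell at an adjusted p under 0.05. Medians run from 1.89 in megakaryocyte genes to -1.12 in lymphoid genes, with mitosis and replication genes gathered near 0.

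No gene of cell division in mitosis separated the populations past the test, where 3.09% of all genes were higher and 4.05% lower. Of 33 mitosis genes, 0 passed the test in either direction by edgeR and by DESeq2, with 1 higher and 3 lower at an unadjusted p under 0.05 and a median log2 difference of -0.06 (0.06 without W1). Mki67, the proliferation marker Ki-67, was at 1449.7, 1457, 1344 and 1380.1 CPM in CD150-positive and 1489, 1226 and 1184 in CD150-negative libraries (0.12 ± 0.19, adjusted p = 0.86). Top2a, a topoisomerase of dividing cells, was at 877 to 1083 against 1089.7 to 1228 CPM (-0.28 ± 0.22, adjusted p = 0.63). The groups overlapped in Mki67, while all CD150-positive libraries were slightly below all CD150-negative ones in Top2a.

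Of 42 DNA replication genes, 0 rose by edgeR and by DESeq2, with 1 higher at an unadjusted p under 0.05. In the other direction 1 fell (2.38%, beside 4.05% of all genes). That gene was Pola2, a subunit of the primase complex, at 68.1 to 78.7 against 116 to 153 CPM (-0.92 ± 0.14, adjusted p = 3.5e-05). Among 22 genes of G1 cyclins, their kinases and inhibitors, 1 rose (4.55%) and 2 fell (9.09%), beside 3.09% and 4.05% of all genes. Cdkn1c, which encodes the inhibitor p57, was at 11.2, 8.88, 6.06 and 15.5 CPM against 2.37, 3.54 and 4.60 (1.57 ± 0.35, adjusted p = 0.0036). E2f1, a factor of S phase entry, was at 24.1, 27.7, 19.5 and 14.4 against 62.4, 47.7 and 66.6 CPM (-1.47 ± 0.20, adjusted p = 8.3e-06). The other fall, Ccnd1 (cyclin D1, -0.77), lost its call without any one of 6 libraries, at an adjusted p of up to 0.12. Those were all but CD150-positive D3-4. The number that rose was 2 without CD150-positive D3-4 or without W1. Cdk6, the G1 kinase of progenitors, was at 196 ± 17.9 against 254 ± 44.3 CPM (adjusted p = 0.1), and Myc at 89.8 ± 5.54 against 117 ± 9.68 (adjusted p = 0.073).

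**Figure D4:**
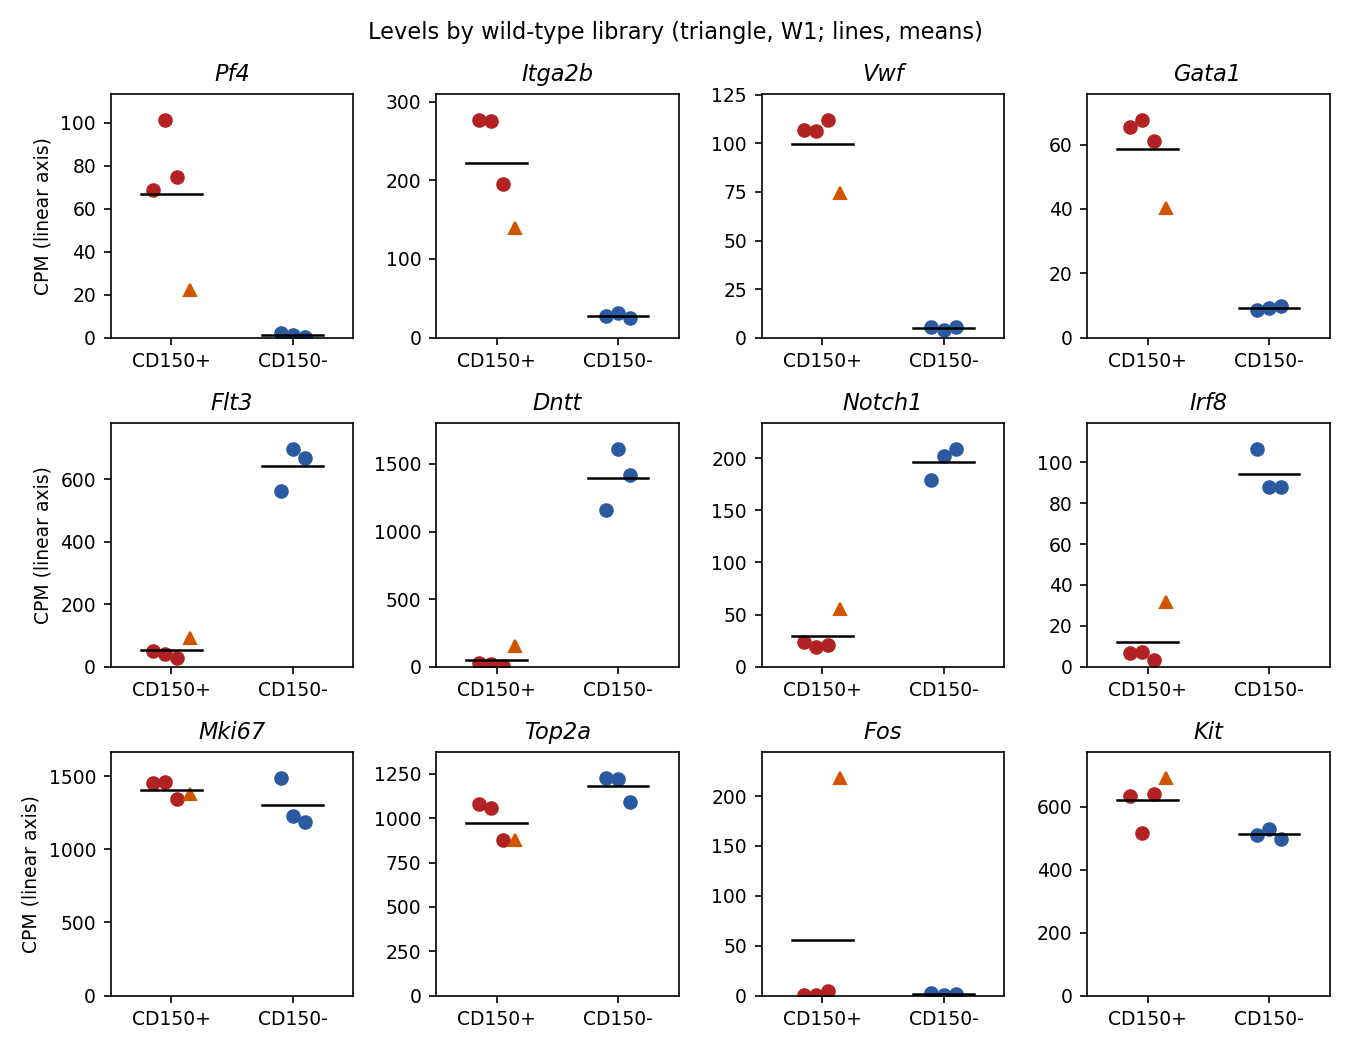
CPM of 12 genes in each wild-type library, on linear axes from 0, with group means as lines and W1 as a triangle. W1 is lowest of the CD150-positive libraries in Pf4, Itga2b, Vwf and Gata1 and highest in Flt3, Dntt, Notch1, Irf8 and Fos, while Mki67 lies between 1184 and 1489 CPM in all 7.

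Receptors and adhesion genes were divided between the populations. Of 55 cytokine and growth factor receptors, 5 rose (9.09%) and 15 fell (27.3%), beside 3.09% and 4.05% of all genes. The median log2 difference of these receptors was -0.16 (5 rose and 14 fell without W1, median -0.22). Tgfbr3, the betaglycan coreceptor of TGF-beta, had the smallest p of these genes, at 119, 97.4, 106 and 93.2 against 13.6, 13.3 and 17.3 CPM (2.82 ± 0.19, adjusted p = 9.4e-11). Il1r1, the interleukin 1 receptor, was at 15.6, 13.3, 9.13 and 18.4 against 93.6, 118 and 109 CPM (-2.92 ± 0.30, adjusted p = 1.2e-07). The groups were wide apart in both, with W1 lowest of the CD150-positive libraries in Tgfbr3 and highest in Il1r1. Il10rb and Ifnar2, which overlap each other on the same strand, fell by 0.84 ± 0.15 and 0.81 ± 0.15.

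Among 36 G protein coupled receptors, 5 rose (13.9%) and 8 fell (22.2%), beside 3.09% and 4.05% of all genes. F2r was at 124, 125, 109 and 61.6 against 23.4, 21.2 and 22 CPM. Ptger1, a prostaglandin E2 receptor, was at 0.444, 0.854, 0.0878 and 1.08 CPM in CD150-positive and 23.2, 23.7 and 21.2 in CD150-negative libraries (-5.23 ± 0.59, adjusted p = 4.8e-07). It was close to absent from every CD150-positive library. Part of its exon sequence overlaps the opposite strand's transcripts, and how the reads were divided was not tested. P2ry14, a receptor for UDP sugars, fell by 1.82 ± 0.27, and P2ry1, the ADP receptor of platelets, rose by 1.95 ± 0.31.

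Of 38 integrin and adhesion genes, 9 rose (23.7%) and 10 fell (26.3%), beside 3.09% and 4.05% of all genes. Without W1, 9 rose and 11 fell. Itga6, a laminin receptor chain, was at 136 to 161 against 70.8 to 89.3 CPM (0.85 ± 0.13). Itgb5 was at 4.27 to 10.8 against 34.3 to 40.9 (-2.48 ± 0.31). Itgal, the LFA-1 chain, fell by 1.69 ± 0.23.

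Imprinted genes, of which only 1 parental copy is active, gave 4 higher and 1 lower of 26 tested. These were 15.4% and 3.85% of the list, beside 3.09% and 4.05% of all genes. The list's median log2 difference was 0.89. Without W1, 5 were higher and 1 lower (median 0.86), and without CD150-negative D2, 2 were higher. Grb10, an adaptor that restrains growth signals, was at 90.1, 79.7, 93.9 and 101 CPM against 14.6, 16.6 and 20.5 (2.40 ± 0.20, adjusted p = 3.2e-09). Mest was at 0.333, 0.512, 0.395 and 0 against 4.66, 3.52 and 4.91 CPM (-3.85 ± 0.76, adjusted p = 0.001). Mest shares 904 of 3937 exon bases with Copg2 on the opposite strand, whose log2 difference was -0.08. The imprinted genes held members of both directions, with Grb10 high and Mest near 0 in all CD150-positive libraries. H19 was at 4.39 ± 2.52 against 1.99 ± 0.730 CPM (adjusted p = 0.5), and Meg3 at 15.9 ± 4.71 against 19.7 ± 6.05 (adjusted p = 0.8).

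Of 26 targets of p53, 0 rose by edgeR, with 4 higher at an unadjusted p under 0.05 and 1 higher by DESeq2, and 4 fell (15.4%, beside 4.05% of all genes). Without CD150-negative D4 or without W1, 1 was higher. Zmat3, an RNA-binding protein, was at 24.2, 43.6, 23.3 and 19 CPM against 117, 84.1 and 117 (-1.95 ± 0.30, adjusted p = 5.4e-05), and Xpc, which finds DNA damage, at 137, 99.2, 79.7 and 156 against 281, 339 and 339 CPM (-1.44 ± 0.24). Both were apart between the groups. Cdkn1a, the inhibitor p21, was at 1.38 ± 0.799 against 2.35 ± 0.0544 CPM (adjusted p = 0.2). Among 21 genes of the Bcl2 family and its regulators, Nol3 rose and Bcl2, a survival factor, fell by 0.83 ± 0.20, from 169 to 189 CPM in CD150-negative to 84.8 to 112 in CD150-positive libraries. These were 4.76% of the list in each direction, near the shares over all genes. In that list 2 genes rose without CD150-negative D4 and 2 fell without CD150-negative D2 or W1. Of 23 immediate early genes, Nr4a2 and Egr1 rose (8.7%) and Dusp2 fell (4.35%), beside 3.09% and 4.05% of all genes. The list's median log2 difference was 0.87. Without W1 0 rose and 1 fell by edgeR, and the median was 0.06. The same count of 0 rises was found without CD150-negative D2 or D3, and 0 falls without any one of the 3 CD150-negative libraries and CD150-positive D1, D2 and D3-4. With all libraries 9 were higher at an unadjusted p under 0.05, and DESeq2 called 6 higher.

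Of 26 glycolysis genes, 2 rose (7.69%) and 5 fell (19.2%), beside 3.09% and 4.05% of all genes. Hk1, a hexokinase, was at 330 to 421 against 198 to 236 CPM (0.74 ± 0.13, adjusted p = 0.00027), and Pdk4, which holds pyruvate back from mitochondria, at 4.28 to 9.40 against 30.0 to 43.4 CPM (-2.54 ± 0.48, adjusted p = 0.00067). Neither overlapped between the groups. The number of glycolysis genes that fell was 2 without CD150-negative D2 and 3 without CD150-negative D3, CD150-positive D2 or CD150-positive D3-4, and 1 rose without any one CD150-negative library. Slc2a3, a glucose transporter and the other rise (0.53), also lost its call without W1, at an adjusted p of 0.0503. Of 84 subunits of oxidative phosphorylation, 1 rose (1.19%), Cox6b2 (1.03 ± 0.19), and 0 fell by edgeR, with 2 lower at an unadjusted p under 0.05 and 1 by DESeq2. Without W1 2 rose, and without CD150-positive D2 1 fell.

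Of 83 cytosolic ribosomal protein genes and 37 genes of ribosome biogenesis, 0 passed the edgeR test in either direction. Over all genes, 3.09% were higher and 4.05% lower. At an unadjusted p under 0.05, 2 ribosomal protein and 3 biogenesis genes were higher and 0 lower, and DESeq2 called 1 and 0. Without W1, 1 ribosomal protein gene rose. Of 331 solute carrier genes, 9 rose and 18 fell, near the shares over all genes. Slc7a11, the cystine importer, was at 6.39 to 18.6 against 68.8 to 78.8 CPM (-2.82 ± 0.36), and Slc18a2, a monoamine transporter of vesicles, at 51.1 to 77.5 against 14.7 to 23.2 CPM (1.92 ± 0.30).

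Of 29 genes of Polycomb, DNA methylation and Mysm1, 0 rose by edgeR, by DESeq2 or at an unadjusted p under 0.05. By edgeR 4 fell (13.8%, beside 4.05% of all genes). The number that fell was 2 without any one of the 3 CD150-negative libraries and without CD150-positive D3-4. Cbx2, a Polycomb subunit, was at 9.57 to 15.2 against 20.8 to 27.3 CPM (-0.91 ± 0.19), and Dnmt3b, a DNA methyltransferase, at 52.5 to 83.0 against 101 to 119 CPM (-0.73 ± 0.17). Of 42 interferon response genes, 1 rose, Ifih1 (2.38%, beside 3.09% of all genes), and 0 fell by edgeR. At an unadjusted p under 0.05, 4 were lower, and DESeq2 called 2 lower. Ifih1 lost its call without any one of CD150-negative D2, CD150-negative D4, CD150-positive D2 and W1, and without W1 1 gene fell.

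Markers of mature cells that a marrow sort could carry over were detected in both populations. The summed level of 5 B cell markers was 48.7 to 95.4 CPM in CD150-positive and 43.1 to 63.5 in CD150-negative libraries, that of 7 macrophage markers 21.4 to 35.4 and 17.4 to 27.0, and that of 7 neutrophil markers 33.9 to 341 and 108 to 268. S100a9, a neutrophil protein, reached 175 CPM in CD150-positive D2 and was lowest in W1, at 12.5. Of these 3 lists 0 members passed the test by edgeR or DESeq2, and at an unadjusted p under 0.05 only 1 macrophage marker was higher. Over all genes, 3.09% were higher and 4.05% lower, but 1 call is a large share of the short lists that follow. Of 6 T cell markers, summed at 47.9 to 85.5 and 57.0 to 77.2 CPM, 1 rose (Cd3g) and 1 fell (Lck, -1.50 ± 0.24). Cd3g lost its call without any one of 5 libraries, at an adjusted p of up to 0.13. Those were all but CD150-positive D2 and W1. Of 4 endothelial markers, summed at 17.6 to 33.1 and 13.4 to 15.6 CPM, 1 rose (Kdr), and its call was lost without CD150-negative D2 or D3 or W1. Stromal markers summed to 54.6 to 116 and 86.6 to 214 CPM, with 1 of 6 lower (Pdgfrb, -1.24) and 2 lower without CD150-negative D3. The 3 plasma cell markers summed to 6.19 to 9.82 and 14.6 to 36.6 CPM, with no overlap, and Sdc1 fell (-1.98, adjusted p = 0.013). Its call was lost without CD150-negative D4, CD150-positive D1 or CD150-positive D3-4. The part of other cells in the results was not tested.

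The same populations of the other 3 genotypes share no library with the wild type, so the direction of each wild-type call could be looked up there. Of the 675 genes that were higher, 670 (99.3%) were also higher in Puma-/- cells, 661 (97.9%) in Mysm1-/-Puma+/- and 665 (98.5%) in Mysm1-/-Puma-/- cells. Over all genes tested, 59.5%, 49.8% and 44.9% were higher in those genotypes. Of the 885 that were lower, 875 (98.9%), 851 (96.2%) and 860 (97.2%) were lower too, beside 40.5%, 50.1% and 55.1% of all genes. Past the test in the same direction were 370, 370 and 466 of the higher genes, where 2.29%, 2.67% and 5.16% of all genes were higher past the test, and 487, 497 and 672 of the lower ones, where 2.66%, 3.24% and 7.14% were lower. Called the other way were 0 of the higher genes in each genotype and 0, 1 and 2 of the lower ones. All 29 libraries share 1 estimate of the spread, so these tests are not wholly separate. Nol3 had log2 differences of 9.81, 6.97 and 6.79 in Puma-/-, Mysm1-/-Puma+/- and Mysm1-/-Puma-/- cells, Sdpr 7.39, 5.46 and 7.47, and Flt3 -4.21, -2.70 and -2.89.

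Whether the difference between the populations itself varied with genotype was tested with 1 term of 3 degrees of freedom, and 2 genes (0.00916%) passed, Ak1 and Actn4, with 759 at an unadjusted p under 0.05. Ak1, adenylate kinase 1, was at 17.2, 10.7, 7.81 and 14.4 CPM in wild-type CD150-positive and 4.20, 3.5 and 4.58 in CD150-negative libraries, a log2 difference of 1.61 ± 0.20. It was 1.55 ± 0.23 in Puma-/-, -0.33 ± 0.19 in Mysm1-/-Puma+/- and 0.19 ± 0.17 in Mysm1-/-Puma-/- cells (adjusted p of the variation = 0.00093). The difference of Ak1 passed the test in the wild-type and Puma-/- cells and not in the Mysm1-/- genotypes (adjusted p = 0.41 and 0.62), and its level was 36.9 CPM or more in every library labelled Mysm1-/-. Actn4, an actin crosslinker, was at 101, 77.6, 76.7 and 100.5 against 142, 98.3 and 166 CPM in the wild type, where the groups overlapped. Its log2 difference was -0.60 ± 0.15 in wild-type, -0.34 ± 0.19 in Puma-/-, 0.57 ± 0.16 in Mysm1-/-Puma+/- and 0.68 ± 0.14 in Mysm1-/-Puma-/- cells (0.015). The adjusted p of Actn4 was 0.08 without CD150-negative D2, 0.099 without CD150-negative D4, 0.057 without CD150-positive D3-4, 0.053 without the libraries named P or W and 0.35 when those of high background were left out. Ak1 shares 124 of 2793 exon bases with Eng on the same strand, and Actn4 338 of 5026 with Capn12 on the opposite one.

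**Figure D5:**
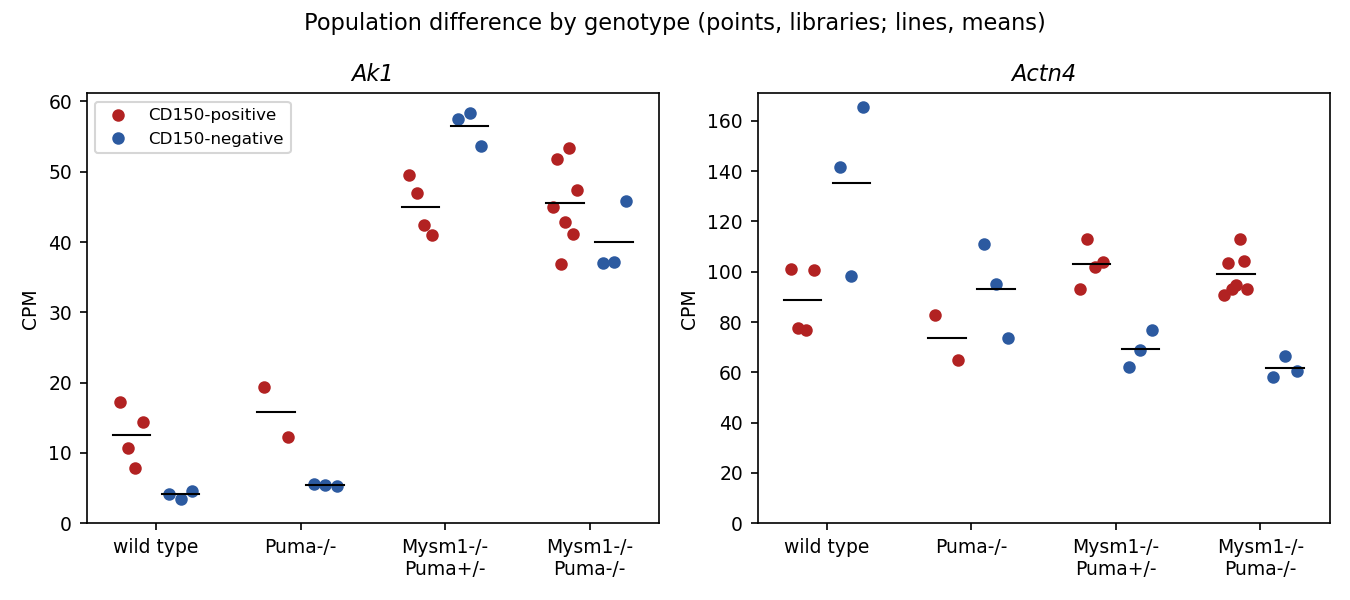
CPM of Ak1 and Actn4 in all 29 libraries by genotype, with CD150-positive libraries in red, CD150-negative ones in blue and group means as lines. Wild-type CD150-positive cells lie above CD150-negative ones in Ak1, at a mean of 12.5 against 4.09 CPM, and the 2 populations of the Mysm1-/- genotypes lie between 36.9 and 58.4 CPM.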

How the data were processed

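RNA was sequenced as paired reads of 50 bases from libraries made with a stranded low-input kit after ribosomal RNA removal, per the labels' protocols. The submitters' processing notes name Trimmomatic 0.33, TopHat2 2.0.9, Bowtie 1.0.0, featureCounts, edgeR and mm9. The strand setting, the annotation release and the handling of multi-mapped reads are not given in the sources used here. The deposited counts per gene were the basis of all tests, and the CPM deposited by the authors were used for 1 alternative. No deposited column came from samples outside the series (0 columns).

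Of 23366 genes, 21830 passed edgeR's filter. TMM scaling and the quasi-likelihood test (edgeR 4.0.16, R 4.3.3) were fitted to 29 libraries in 8 groups, with Benjamini-Hochberg adjustment. The SE is the log2 difference divided by the root of F, an approximation. The alternatives used DESeq2 1.42.0, limma 3.58.1 (pseudocount 1 on CPM), other scalings, filters and library sets. The statistics were tested on simulated data.

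Genes named were Slamf1 and Flt3, the 12 largest rises and falls at a mean log2 CPM of at least 2 with no shared range, up to 5 called members per direction of each list, textbook members not called, and genes varying with genotype. Gp5 and Mmrn1 were added for their promoters. Members and lists were chosen with earlier results of these data known. Gene positions are NCBIM37. Some members of the lists are not reported here.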

Additional observations from a re-analysis of the deposited data

Results flagged for a closer look

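In 7 of the 74 genes checked, 1 of the 4 CD150-positive wild-type libraries lay far from the other 3, a pattern that chance gives in about 1 in 20 groups. W1 was the library in 6 of them. It was low in Vwf (74.3 CPM against 106 to 112), Gata2 (140.46 CPM against 176 to 182) and high in Dntt (153 CPM against 6.14 to 28.0), Notch1 (55.1 CPM against 18.4 to 23.9) and Egr1 (51.7 CPM), and it stood apart in Mrpl24 (69.7 CPM). D2 was high in Myoz3, at 15.1 CPM against 2.90 to 3.72. All of these genes except Egr1 kept their call without any single library.

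The difference between CD150-positive and CD150-negative cells varied with genotype in Ak1 (adjusted p = 0.00093 by edgeR) and in Actn4 (adjusted p = 0.0152). Over the alternatives the adjusted p of Ak1 was 4.083e-10 to 0.03927. That of Actn4 was 3.311e-06 to 0.3498.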

How the results depend on the processing

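Against 675 higher, 885 lower and 2 genes varying with genotype, limma voom with quality weights gave 1102, 1401 and 4, and background reads as a covariate gave 1042 and 1569, with 3 varying. DESeq2 gave 18 genes varying with genotype. Leaving out the libraries of high background gave 1, as did leaving out the P and W libraries. With single wild-type libraries left out, 405 to 627 were higher, 579 to 868 lower and 1 to 3 varied. With the replicate block in limma voom, 815 were higher, 1123 lower and 4 varied. The wild-type groups share only the name D2, and of 7 shared names in the series 2 libraries correlated best with their own name, so the names were not taken as pairing. The other settings gave 560 to 995 higher and 867 to 1192 lower. No named gene changed direction, and 113 of 152 kept their call under every setting. The cause of these changes was not tested. Among the 7 wild-type libraries, depth was lower in every CD150-positive than in every CD150-negative one, which limits what could be seen in genes of low level there.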
